A study of Homo sapiens with 8 samples.

Results

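Tropomyosins, alpha-actinins, calponins, a transgelin and a myosin light chain bind or move actin filaments, and 10 of their genes (*TPM1*, *TPM2*, *TPM3*, *TPM4*, *ACTN1*, *ACTN4*, *MYL9*, *TAGLN2*, *CNN2* and *CNN3*) were followed here among the 20030 rows of each expression file. The genes were taken by symbol, and all 10 were among the 10677 genes tested, which needed 1 FPKM or more in 2 or more libraries. *TPM4* was on the list because it had been noted as raised in every knockdown of these same libraries, so its difference from the control is described below without a test.

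RNA was sequenced from HCT-116, an established human colorectal cancer cell line, in 8 libraries of cells transfected with siRNA. The groups were a control siRNA (siNC, n = 2), siRNAs against the homeobox factor *HHEX* (siHHEX, n = 3), siRNA pairs against the co-activators *YAP1* and *WWTR1*, also called TAZ (siYAP/TAZ, n = 2), and siRNAs against the 4 DNA-binding TEAD factors (siTEAD1/2/3/4, n = 1). Per the methods, each siHHEX and each siYAP/TAZ library had its own siRNA or siRNA pair, so that the spread within these groups holds both siRNA and library differences. The sources used here do not say whether libraries of a group came from separate cultures, and p-values measure the spread between these libraries only. All comparisons with siNC share the same 2 control libraries.

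Tropomyosins are coiled-coil proteins that lie along actin filaments and set which myosins and severing proteins can bind them. Alpha-actinins crosslink filaments into bundles, calponins and transgelins bind along them and stabilise them, and the regulatory light chain carried by *MYL9* switches nonmuscle myosin II. Genes of this kind are known targets of serum response factor, which binds the CArG box together with actin-sensing cofactors, and some are also known to respond to YAP and TEAD.

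The siRNA targets were checked first. *HHEX* was at 8.60 and 9.06 FPKM in the siNC libraries and at 3.25, 3.54 and 1.85 FPKM in siHHEX. *YAP1* was at 20.2 and 19.7 FPKM in siNC and at 6.90 and 8.39 FPKM in siYAP/TAZ (limma adjusted p = 0.0681), and it was at 5.77, 17.4 and 6.93 FPKM in siHHEX (limma adjusted p = 0.0429). *WWTR1* was at 6.80 and 6.72 FPKM in siNC and at 2.64 and 2.58 FPKM in siYAP/TAZ. In the siTEAD1/2/3/4 library *TEAD1* was at 9.02, *TEAD2* at 2.73 and *TEAD4* at 5.56 FPKM, against siNC means of 18.6, 3.78 and 20.8 FPKM. *TEAD3* was at 9.08 FPKM there against a siNC mean of 7.18 FPKM, so this target was not lower in the library labelled siTEAD1/2/3/4. TEAD genes also differed in the other knockdowns. *TEAD1* was at 6.99, 10.2 and 5.30 FPKM in siHHEX (-1.25 on the log2(FPKM + 1) scale, limma adjusted p = 0.00641), which reaches below its level with the TEAD siRNAs, and *TEAD2* rose there to 6.50, 8.02 and 7.18 FPKM (0.78, limma adjusted p = 0.00709). *TEAD4* fell in siYAP/TAZ to 12.5 and 13.6 FPKM (-0.64, limma adjusted p = 0.025).

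The cells carried the keratins of an epithelial line, with siNC means of 1650.0 FPKM for *KRT8*, 909 FPKM for *KRT18*, 707 FPKM for *KRT19* and 168 FPKM for *EPCAM*. *KRT8* and *KRT18* fell in siYAP/TAZ, to 898 and 897 FPKM and to 376 and 404 FPKM (-0.88 and -1.22 on the log2(FPKM + 1) scale, limma adjusted p = 0.00227 and 0.000861). In siHHEX *KRT18* fell by 0.29, *EPCAM* fell by 0.38 and the intestinal factor *CDX2* rose by 0.42 (limma adjusted p = 0.0348, 0.0289 and 0.042). *CDX2* was at 3.86 to 6.24 FPKM and *CDH1* at 8.16 to 15.7 FPKM over the 8 libraries, while *VIL1* reached no more than 0.0335 FPKM and *CDX1* was listed at 0. Summed over the 8 genes of this list, 3370.0 and 3520.0 FPKM in siNC stood beside 3120.0, 3440.0 and 3660.0 FPKM in siHHEX, 2030.0 and 1980.0 FPKM in siYAP/TAZ and 2720.0 FPKM in siTEAD1/2/3/4.

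Of 9 smooth muscle markers, 5 stayed below 1 FPKM in every library, among them *MYH11*, *CNN1*, *LMOD1* and *MYOCD*, which stayed below 0.04 FPKM. *SMTN* was the most abundant, at 6.36 to 9.75 FPKM, followed by *TAGLN* at 0.636 to 2.69 FPKM, *ACTA2* at 0.51 to 2.79 FPKM and *DES* at 0.613 to 1.0 FPKM. The list summed to 10.2 and 9.74 FPKM in siNC, to 12.5, 11.5 and 13.2 FPKM in siHHEX, to 10.2 and 13.4 FPKM in siYAP/TAZ and to 10.9 FPKM in siTEAD1/2/3/4. *ACTA2*, the smooth muscle actin, was the gene of this list that passed the test against siNC, and it rose in siYAP/TAZ from 0.787 and 0.51 FPKM to 1.84 and 2.79 FPKM. *TAGLN* went the other way there, from 1.95 and 2.15 FPKM to 0.636 and 1.23 FPKM, and was not called (-0.676 on the log2(FPKM + 1) scale, limma adjusted p = 0.0919). *SMTN* was not called either (0.195, limma adjusted p = 0.443).

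The 8 fibroblast markers summed to 2.31 and 2.2 FPKM in siNC, to 1.74, 2.01 and 4.09 FPKM in siHHEX, to 3.11 and 5.54 FPKM in siYAP/TAZ and to 4.27 FPKM in siTEAD1/2/3/4. Their most abundant genes were *COL1A1* at 0.647 to 2.04 FPKM and *FN1* at 0.798 to 1.67 FPKM, neither of which was called (limma adjusted p = 0.183 and 0.234 in siYAP/TAZ). *VIM* was at 0.0189 to 1.36 FPKM, and *DCN* and *LUM* reached no more than 0.16 FPKM. The 7 markers of skeletal and cardiac muscle summed to at most 0.233 FPKM in any library. The part of these markers in the results below was not tested. In RNA from whole cultures, fewer cells of a kind and less RNA per cell cannot be told apart.

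FPKM is scaled by gene length, so that levels of different genes can be set side by side. In siNC the order by mean FPKM was *ACTN4* (115 ± 8.16, SD, n = 2 here and for the next levels), *CNN2* (97.7 ± 7.34), *TAGLN2* (95.5 ± 2.07), *TPM2* (59.0 ± 0.496), *MYL9* (38.1 ± 0.555), *TPM3* (38.0 ± 0.369), *CNN3* (29.0 ± 0.932), *TPM4* (26.7 ± 0.411), *ACTN1* (21.4 ± 0.213) and *TPM1* (2.34 ± 0.267). The neighbours *CNN2* and *TAGLN2* overlapped between the control libraries, as did *MYL9* and *TPM3*, and the other neighbours did not. *ACTN4* stood higher than 95.6% of the tested genes in siNC and *TPM1* higher than 20.3%.

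The genes lie apart in the genome (GENCODE 44, GRCh38). *TPM4* (chr19:16067021-16103002, plus strand, 8 exons in the canonical transcript), *ACTN4* (chr19:38647649-38731589) and *CNN2* (chr19:1026586-1039068) share only a chromosome, *TPM2* is at chr9:35681992-35690056 and *CNN3* at chr1:94896949-94927223. Pseudogenes named after them number 11 for *CNN2*, 9 for *TPM3*, 3 for *TPM4*, 2 for *ACTN4* and 1 each for *TPM2*, *TAGLN2* and *CNN3*, and *MYL12A* and *MYL12B* are close copies of each other. How the authors' counting shared reads among such copies is not given in the sources used here, and the levels of these genes are uncertain to that extent.

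**Figure D1:**
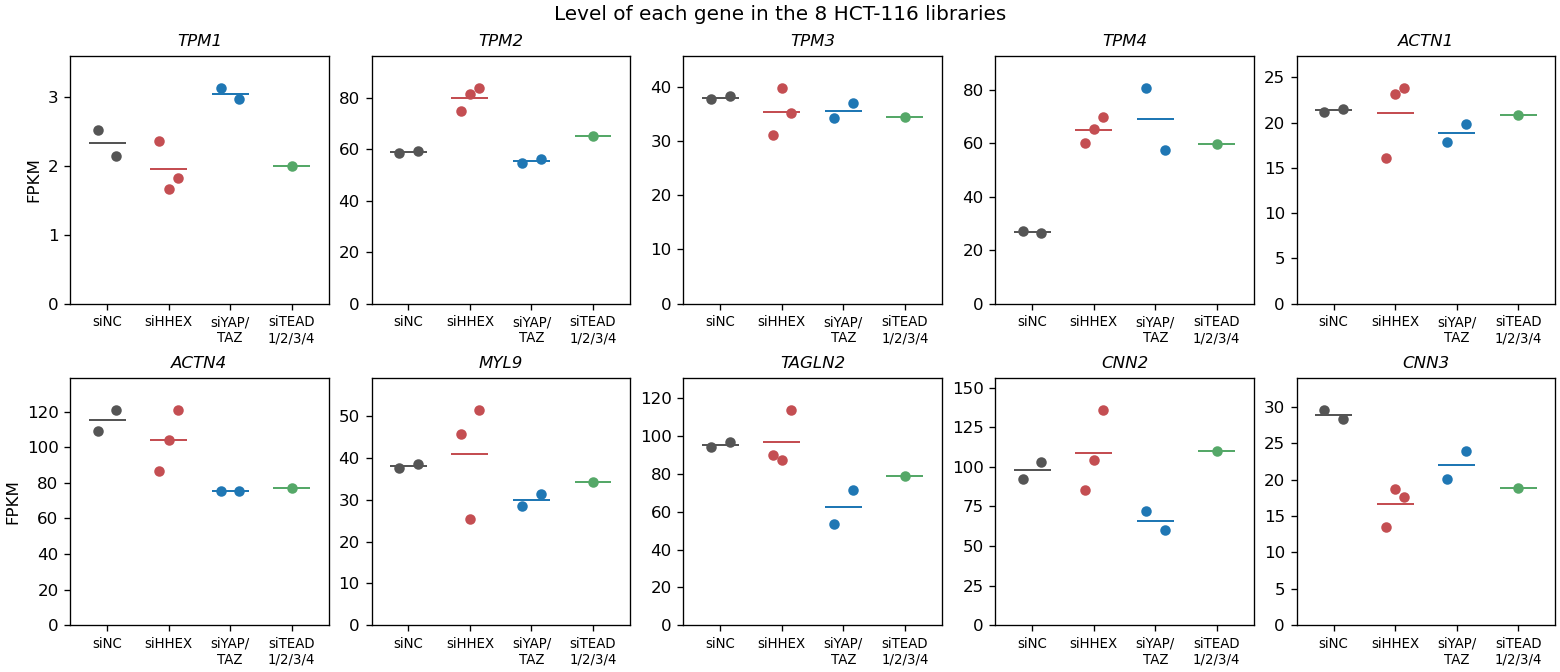
Level of the 10 genes (FPKM, vertical axis, each panel from 0 with its own scale) in the siNC, siHHEX, siYAP/TAZ and siTEAD1/2/3/4 libraries. Points are libraries and bars are group means; the 6 knockdown libraries of *TPM4* lie between 57.5 and 80.6 FPKM, above the 27.0 and 26.4 FPKM of siNC.

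*TPM4* showed the largest difference of the 10 genes. It was at 27.0 and 26.4 FPKM in siNC, at 60.0, 65.4 and 69.7 FPKM in siHHEX, at 80.6 and 57.5 FPKM in siYAP/TAZ and at 59.7 FPKM in siTEAD1/2/3/4. No knockdown library came near the controls, and the single highest and lowest knockdown values both belonged to siYAP/TAZ. The means were 2.43-fold the siNC mean in siHHEX, 2.58-fold in siYAP/TAZ and 2.23-fold in siTEAD1/2/3/4. On the log2(FPKM + 1) scale, which is used for every change below, the differences from the siNC mean were 1.14, 1.26 and 1.35 in the 3 siHHEX libraries, 1.56 and 1.08 in siYAP/TAZ and 1.13 in siTEAD1/2/3/4, and *TPM4* was placed 16 from the highest of 10677 genes in siHHEX and 53 in siYAP/TAZ.

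*TPM4* was the only one of the 10 genes above both controls in all 6 knockdown libraries, a pattern that 16.9% of all tested genes had, and *CNN3* was the only one below both controls in all 6, as 10.3% of the tested genes were. Between knockdowns, where siNC plays no part in the difference, *TPM4* differed by -0.068 (siHHEX minus siYAP/TAZ, SE 0.149, 95% interval -0.403 to 0.268, limma adjusted p = 0.73). The interval leaves room for a difference of either sign, and with the libraries scaled to equal medians the difference was 0.11.

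**Figure D2:**
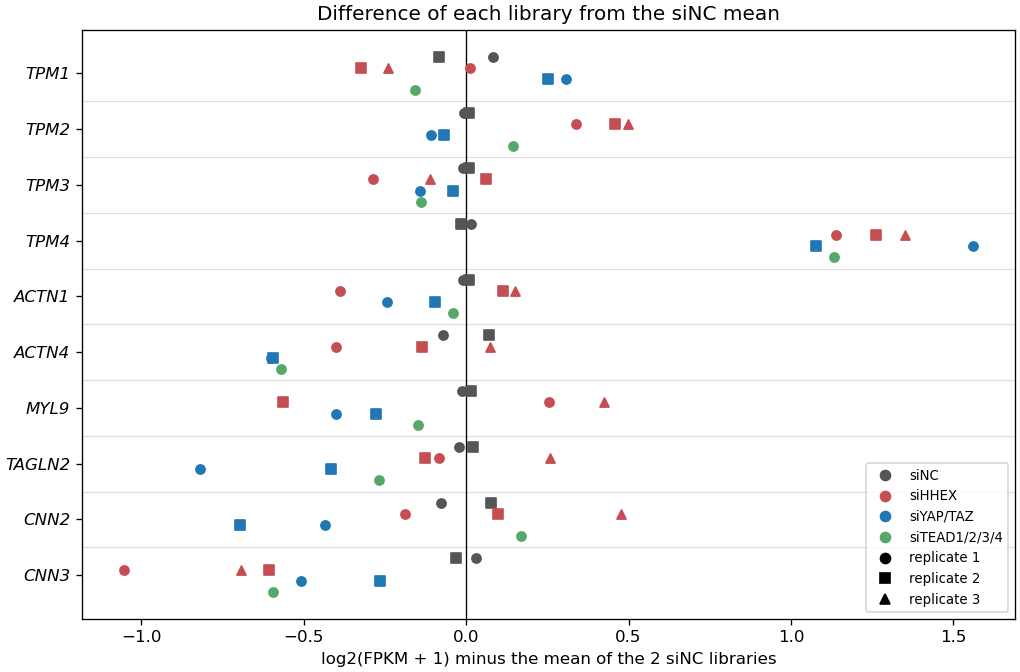
Distance of every library from the siNC mean on log2(FPKM + 1) (horizontal axis), for the 10 genes (rows). Colours are groups and marker shapes are replicate numbers; *TPM4* lies between 1.08 and 1.56 in all 6 knockdown libraries and *CNN3* between -1.05 and -0.27.

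The control siRNA enters every comparison with siNC, and its sequence was therefore set against the transcripts. This look was made after the values of *TPM4* were known. The strand given for siNC is shown first, 5′ to 3′, with its bases 2 to 8 (the seed, which pairs with a target when a strand acts as guide) in capitals. The second line is a stretch of the 3′ UTR of the canonical *TPM4* transcript (GRCh38, chr19:16101482-16101511, plus strand, GENCODE 44), with the complement of that seed in capitals.
siNC: uUCUCCGAacgugucacgutt
TPM4 site: aatattttgtaTCGGAGAagctttgagcac

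The match covered 7 bases, ended there on its upstream side, and was followed by an A opposite base 1 of the strand. It started at base 147 of a 3′ UTR of 1656 bases. Of the 10 genes, *TPM4* alone had this word in its 3′ UTR, and *ACTN1* and *CNN2* had it elsewhere in the transcript. Among the tested genes with a 3′ UTR it stood in that of 205 of 10332 (1.98%), and anywhere in the transcript of 1146 (11.1%). The corresponding word for the opposite strand of siNC was in none of the 10 transcripts, and in the 3′ UTR of 308 genes (2.98%).

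The 205 genes with the first word had median differences from siNC of 0.12, 0.17 and 0.20 in siHHEX 1, 2 and 3, of 0.22 and 0.17 in siYAP/TAZ 1 and 2, and of 0.19 in siTEAD1/2/3/4. Genes without it had medians of -0.03, 0.01 and -0.01 in siHHEX, of 0.07 and 0.09 in siYAP/TAZ, and of 0.06 in siTEAD1/2/3/4. The 308 genes with the word for the opposite strand had medians of -0.02, 0.01, -0.02, 0.12, 0.08 and 0.11 in the same order. The medians of the first set were thus higher in each of the 6 libraries, all of which were set against the same 2 controls. The quartiles of the sets overlapped, but they describe the spread of single genes and cannot decide whether the medians differ. From siNC 1 to siNC 2 the median difference was 0.016 for the 205 genes and 0.03 for the 308.

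These sets also differed in other ways. Genes with the first word had longer 3′ UTRs (median 2744 bases against 1278) and a slightly higher GC content (median 51.5% against 49.0%), and the genes with the opposite strand's word had a median UTR of 2723 bases. After correction for GC content and length the medians of the 205 genes were 0.07, 0.13, 0.12, 0.18, 0.17 and 0.15, against -0.04, 0.02, -0.03, 0.06, 0.09 and 0.06 in the others. For the genes with the opposite strand's word they were -0.015, 0.023, 0.012, 0.084, 0.071 and 0.089. The length corrected was that of the whole canonical transcript, and the length of the 3′ UTR itself was not corrected. When all words of 7 bases held by at least 30 genes were ordered by how high their genes' changes ranked, the word was at place 776 of 16297, the opposite strand's word was at place 3465, and the 12 leading words each had 6 or 7 G or C bases. A shorter, 6-base form was in the 3′ UTRs of *TPM3*, *TPM4* and *ACTN4* for the listed strand and in none of the 10 for the opposite strand. Its share over all tested genes is not given here, so this count has no background to be read against. Whether siNC lowered *TPM4* was not tested.

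**Figure D3:**
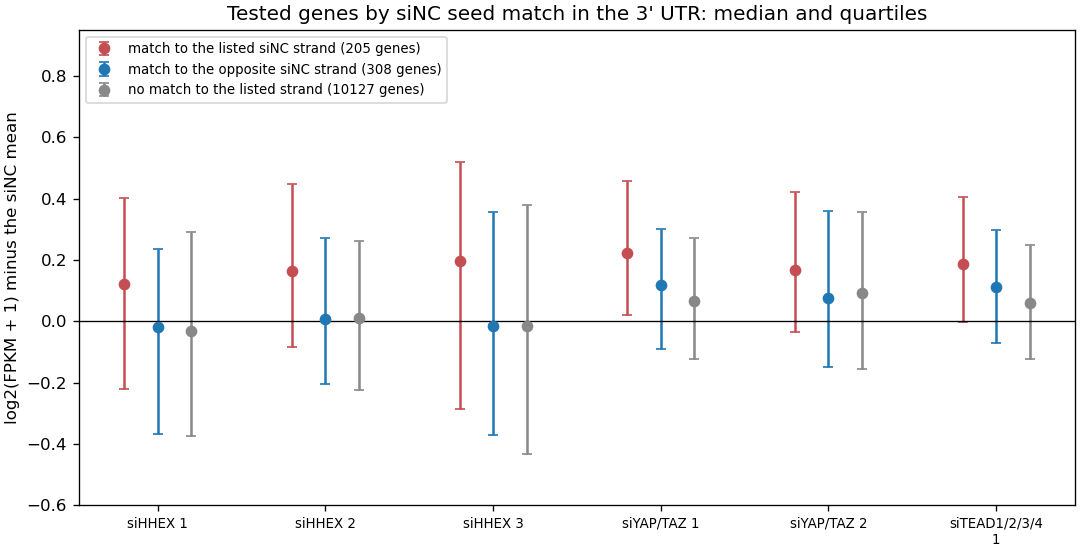
Difference from the siNC mean on log2(FPKM + 1) (vertical axis) in the 6 knockdown libraries for tested genes grouped by a 7-base seed match to siNC in the 3′ UTR. Points are medians, and bars run from the lower to the upper quartile of single genes and overlap widely between the sets. The medians of the 205 genes matching the listed strand lie between 0.12 and 0.22.

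The 5 tested genes whose changes over the 6 knockdown libraries were most like those of *TPM4*, by root mean square difference, were *GANAB* (0.172), *HABP4* (0.23), *OGFR* (0.274), *OSBPL5* (0.292) and *MKNK2* (0.317), against a median of 1.26 over 10675 genes. *GANAB*, the catalytic subunit of an endoplasmic reticulum glucosidase, was at 37.4 and 36.3 FPKM in siNC and at 78.0 to 98.0 FPKM in the knockdowns. *OGFR* was at 20.2 and 20.5 FPKM in siNC and at 36.6 to 51.1 FPKM in the knockdowns. The siNC word was in the 3′ UTR of *HABP4* and *MKNK2*, elsewhere in the transcripts of *OGFR* (7 copies) and *OSBPL5*, and not in *GANAB*. Over the tested genes with a 3′ UTR, 1.98% held it there and 11.1% anywhere in the transcript. These 5 genes were chosen by their changes from siNC, so they give no separate check of what siNC did.

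*TPM2*, the most abundant tropomyosin gene in siNC, rose in siHHEX. It was at 58.6 and 59.3 FPKM in siNC, at 74.7, 81.3 and 83.7 FPKM in siHHEX, at 54.6 and 56.2 FPKM in siYAP/TAZ and at 65.2 FPKM in siTEAD1/2/3/4. All 3 siHHEX libraries lay above the controls and both siYAP/TAZ libraries below them. The change was 0.43 in siHHEX (SE 0.104, limma adjusted p = 0.0163) and -0.09 in siYAP/TAZ (SE 0.114, limma adjusted p = 0.657). The siHHEX call was lost with GC content and length corrected together, as described below (0.002, limma adjusted p = 0.993). It was also lost with the replicate block (0.397, limma adjusted p = 0.0507). In that block siHHEX 3 stands alone, so it adds nothing to the change. Without siNC 1 or siNC 2, which leaves a lone control, the change was 0.422 or 0.439 and the call was not kept.

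*TPM1* and *TPM3* were not called against siNC in either group. *TPM1*, a low gene in these cells, was at 2.53 and 2.15 FPKM in siNC, 2.37, 1.67 and 1.83 FPKM in siHHEX, 3.13 and 2.97 FPKM in siYAP/TAZ and 2.00 FPKM with the TEAD siRNAs. All siHHEX values lay below the siYAP/TAZ values (difference -0.46, SE 0.14, limma adjusted p = 0.0287, and 0.0561 to 0.103 without either siNC library, siHHEX 3 or either siYAP/TAZ library). With the libraries scaled to equal medians this difference was -0.29 (limma adjusted p = 0.148). Both siYAP/TAZ libraries lay above the controls for *TPM1* (0.28, limma adjusted p = 0.269) and below them for *TPM3* (-0.09, limma adjusted p = 0.714). *TPM3* was at 37.7 and 38.3 FPKM in siNC and at 31.0 to 39.7 FPKM in the 6 knockdown libraries, and its siHHEX libraries fell on both sides of the controls.

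The make-up of tropomyosin mRNA shifted with *TPM4*. Summed FPKM of the 4 genes was 126 ± 0.187 in siNC (SD, n = 2), 182 ± 12.2 in siHHEX (n = 3) and 163 ± 13.5 in siYAP/TAZ (n = 2), and 161 in siTEAD1/2/3/4. *TPM4* made up 21.5% and 20.9% of it in siNC, 35.7%, 34.8% and 36.6% in siHHEX, 46.7% and 37.4% in siYAP/TAZ and 37.0% in siTEAD1/2/3/4. These shares carry the value for which *TPM4* was noted. Among the other 3 genes alone, *TPM2* made up 59.3% and 59.5% in siNC, 69.2%, 66.3% and 69.4% in siHHEX, 59.3% and 58.5% in siYAP/TAZ and 64.2% in siTEAD1/2/3/4. The siHHEX shares did not overlap those of siNC or siYAP/TAZ. The exact two-sided permutation p was 0.2 for each comparison, the smallest that 2 against 3 libraries allow. These shares come from FPKM without correction for GC content and length. With that correction the siHHEX changes were 0.002 for *TPM2*, 0.164 for *TPM3* and -0.399 for *TPM1*, in place of 0.431, -0.112 and -0.184.

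**Figure D4:**
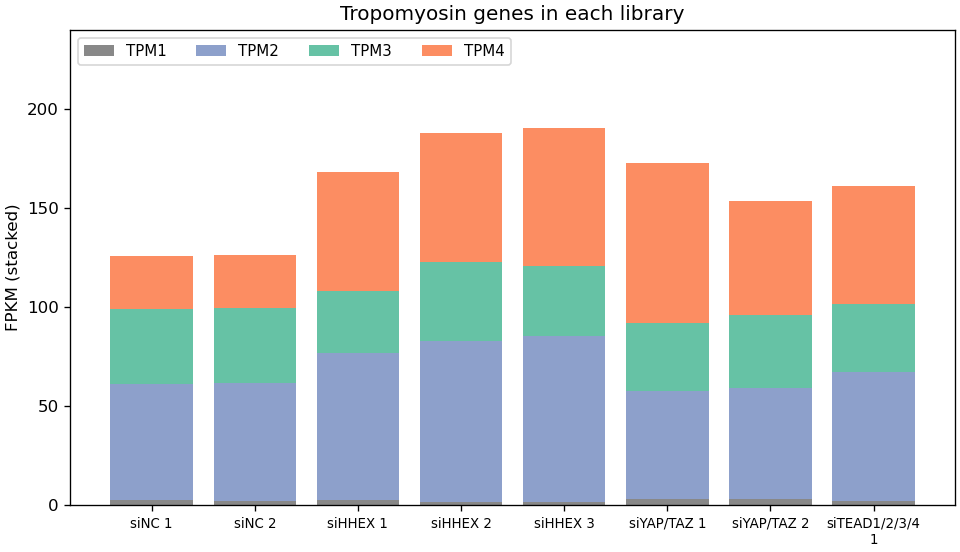
Stacked FPKM of *TPM1*, *TPM2*, *TPM3* and *TPM4* (vertical axis) in each of the 8 libraries. The siNC stacks reach 126 FPKM and the knockdown stacks reach 154 to 190 FPKM, with the *TPM4* segment the one that widens in all 6.

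Of the 2 nonmuscle alpha-actinin genes, *ACTN4* was lower in siYAP/TAZ and *ACTN1* was not called in any comparison. *ACTN4* was at 109 and 121 FPKM in siNC, 86.6, 104 and 121 FPKM in siHHEX, 75.3 and 75.6 FPKM in siYAP/TAZ and 76.9 FPKM in siTEAD1/2/3/4. The siYAP/TAZ and siTEAD1/2/3/4 libraries lay below all siNC and siHHEX libraries, while siHHEX overlapped siNC. *ACTN4* fell by 0.60 in siYAP/TAZ (SE 0.154, limma adjusted p = 0.0467) and was 0.44 higher in siHHEX than in siYAP/TAZ (SE 0.141, limma adjusted p = 0.0345). The latter call was kept without siHHEX 1, and without any other of these 7 libraries, siNC included, the limma adjusted p was 0.0509 to 0.132, and it was 0.277 with GC content and length corrected. Its siYAP/TAZ mean was 65.7% of the siNC mean, and over the measured epithelial markers this share was 42.9% for *KRT18*, 54.4% for *KRT8*, 77.5% for *KRT19*, 90.7% for *EPCAM*, 107% for *CDX2* and 131% for *CDH1*.

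The call of *ACTN4* against siNC rested on every control and siYAP/TAZ library: without any 1 of these 4 the adjusted p was 0.104 to 0.307, at changes of -0.53 to -0.67. *ACTN1* was at 21.2 and 21.5 FPKM in siNC and at 16.1 to 23.8 FPKM in the knockdowns. *ACTN4* made up 83.7% and 84.9% of alpha-actinin FPKM in siNC, 80.8% and 79.1% in siYAP/TAZ and 78.7% in siTEAD1/2/3/4. The muscle forms *ACTN2* and *ACTN3* added at most 0.0757%.

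Of the calponins, *CNN3* fell in siHHEX and *CNN2* was not called there. *CNN3*, the acidic calponin, was at 29.6 and 28.3 FPKM in siNC, at 13.5, 18.7 and 17.6 FPKM in siHHEX, at 20.1 and 23.9 FPKM in siYAP/TAZ and at 18.8 FPKM in siTEAD1/2/3/4. Every knockdown library lay below both controls. *CNN3* fell by 0.78 in siHHEX (SE 0.155, limma adjusted p = 0.00948), and the change in siYAP/TAZ was -0.39 (SE 0.17, limma adjusted p = 0.178). With GC content and length corrected, the siHHEX change was -0.58 (limma adjusted p = 0.0515), and without siNC 1 or siNC 2 the limma adjusted p was 0.109 or 0.0819.

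*CNN2*, the more abundant calponin, was at 92.5 and 103 FPKM in siNC and spread from 85.5 over 104 to 136 FPKM in siHHEX (0.13, limma adjusted p = 0.59, and -0.22 with GC content and length corrected). It was at 72.0 and 59.9 FPKM in siYAP/TAZ and at 110 FPKM in siTEAD1/2/3/4. Both siYAP/TAZ libraries and siHHEX 1 lay below the controls, and the siYAP/TAZ change was -0.56 (SE 0.199, limma adjusted p = 0.105). *CNN2* was higher in siHHEX than in siYAP/TAZ (0.69, SE 0.181, limma adjusted p = 0.0175, and 0.127 without siYAP/TAZ 2). *CNN2* made up 75.7% and 78.4% of calponin FPKM in siNC, 86.4%, 84.8% and 88.6% in siHHEX, 78.2% and 71.4% in siYAP/TAZ and 85.3% in siTEAD1/2/3/4. The siHHEX shares stood apart from siNC and from siYAP/TAZ (exact two-sided permutation p = 0.2 each, the smallest possible), and the smooth muscle calponin *CNN1* was near 0. GC content and length were not corrected in these shares. With that correction the siHHEX changes were -0.22 for *CNN2* and -0.575 for *CNN3*, in place of 0.128 and -0.784.

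*TAGLN2*, the transgelin of nonmuscle cells, was at 94.1 and 97.0 FPKM in siNC, 90.1, 87.3 and 114 FPKM in siHHEX, 53.7 and 71.3 FPKM in siYAP/TAZ and 79.1 FPKM in siTEAD1/2/3/4. The siYAP/TAZ and siTEAD1/2/3/4 libraries lay below the rest, and the siYAP/TAZ mean was 65.4% of that of siNC, beside the epithelial marker shares given with *ACTN4*. The change in siYAP/TAZ was -0.62 (SE 0.171, limma adjusted p = 0.0569), and *TAGLN2* was 0.63 higher in siHHEX than in siYAP/TAZ (SE 0.156, limma adjusted p = 0.0143, and 0.0943 without siYAP/TAZ 1). It made up 97.1% to 98.8% of transgelin FPKM in the 8 libraries, and *TAGLN* was at 0.636 to 2.69 FPKM.

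*MYL9* was uneven among the siHHEX libraries. It was at 37.7 and 38.5 FPKM in siNC, 45.6, 25.4 and 51.5 FPKM in siHHEX, 28.6 and 31.3 FPKM in siYAP/TAZ and 34.3 FPKM in siTEAD1/2/3/4. siHHEX 2 was the lowest of all 8 libraries while siHHEX 1 and 3 were the highest, and the mean change of 0.04 (SE 0.247, limma adjusted p = 0.911) describes none of them. Without siHHEX 2 the change was 0.34 (limma adjusted p = 0.0389), without siHHEX 1 it was -0.07 and without siHHEX 3 it was -0.155. It was -0.294 with GC content and length corrected and -0.155 with the replicate block, and neither was called. The block gives siHHEX 3 no weight, so its value repeats the one without siHHEX 3 and is not a separate check.

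The other regulatory light chain genes were lower in both knockdown groups. *MYL12A* was at 137 and 117 FPKM in siNC and at 71.5 to 92.5 FPKM in the 6 knockdown libraries, and *MYL12B* was at 285 and 244 FPKM in siNC and at 156 to 202 FPKM in the knockdowns. *MYL12A* fell by 0.74 in siHHEX (SE 0.132, limma adjusted p = 0.00744) and by 0.57 in siYAP/TAZ (SE 0.145, limma adjusted p = 0.0439). *MYL12B* fell by 0.65 in siHHEX (limma adjusted p = 0.00725) and by 0.52 in siYAP/TAZ (limma adjusted p = 0.038). Their GC contents were low, 42.7% and 41.6%. With GC content and length corrected the siHHEX changes were -0.65 and -0.48 (limma adjusted p = 0.0191 and 0.0385). With this correction and the replicate block together, both siHHEX calls were lost (-0.625 and -0.459, limma adjusted p = 0.0704 and 0.0929). Both siYAP/TAZ calls were kept there. Without siNC 1 or siNC 2, which leaves a lone control, no call of either gene held. The changes were then -0.535 to -0.85 in siHHEX and -0.408 to -0.686 in siYAP/TAZ. The siYAP/TAZ calls of both genes were also lost without siHHEX 1 or siYAP/TAZ 2. They were lost too without a filter on low values (limma adjusted p = 0.0872 and 0.0773). That of *MYL12A* was lost without siYAP/TAZ 1 and with the replicate block (-0.572, limma adjusted p = 0.0518). The summed FPKM of the 3 light chain genes was 430 ± 42.4 in siNC (SD, n = 2), 285 ± 5.68 in siHHEX (n = 3) and 299 ± 4.96 in siYAP/TAZ (n = 2).

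Counted over the 9 genes other than *TPM4*, siHHEX raised 1 (*TPM2*) and lowered 1 (*CNN3*) at an adjusted p under 0.05 by limma, where 16% of all tested genes were called higher and 16.9% lower. siYAP/TAZ raised 0 and lowered 1 (*ACTN4*), against 6.15% and 2.13% of all genes, and at an unadjusted p under 0.05 the counts were 0 higher and 4 lower, against 19.4% and 7.85%. siHHEX against siYAP/TAZ gave 4 higher (*ACTN4*, *CNN2*, *TAGLN2* and *TPM2*) and 1 lower (*TPM1*), against 13.5% and 25.9% of all genes. In the single siTEAD1/2/3/4 library, *ACTN4* (-0.57) and *CNN3* (-0.60) were lower by more than 0.32 on the log2 scale and 0 genes were higher by as much, against 8.95% and 17.8% of all genes, with no replicate check. The shares for siHHEX against siNC were close to those of all genes. Without siNC 1 or siNC 2, 0 of the 9 genes were called against siNC by limma (at an unadjusted p under 0.05, 1 higher and 1 lower in siHHEX, and 0 higher and 3 or 2 lower in siYAP/TAZ, against 12.8% or 14% and 13.3% or 14.8% of all genes in siHHEX and 10.7% or 10.6% and 3.8% or 3.48% in siYAP/TAZ), and of all 10677 genes 19 or 27 were called in siHHEX and 22 or 15 in siYAP/TAZ.

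The median change of the 9 genes was -0.04 in siHHEX beside -0.01 over all tested genes, and -0.34 in siYAP/TAZ beside 0.08. For siHHEX minus siYAP/TAZ it was 0.38 beside -0.13, and for siTEAD1/2/3/4 it was -0.15 beside 0.06.

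The siHHEX libraries differed from the controls in a way that followed base composition. Across 10349 genes, the change from siNC and the GC content of the transcript had a Spearman correlation of 0.679, 0.599 and 0.756 in siHHEX 1, 2 and 3, of 0.0611 and -0.0517 in siYAP/TAZ 1 and 2, of 0.301 in siTEAD1/2/3/4, and of 0.211 between the 2 controls. Genes are not independent replicates, and no p is given. The gene that rose in siHHEX, *TPM2*, had a GC content of 57.7% and the gene that fell, *CNN3*, one of 43.0%, around a median of 49.1% for all genes. Other genes of high GC content were not called in siHHEX, namely *MYL9* (60.2%, change 0.04), *CNN2* (58.9%, 0.13), *ACTN4* (58.6%, -0.15), *TAGLN2* (56.0%, 0.02) and *ACTN1* (55%, -0.04). With GC content and length corrected, 0 of the 9 genes were called in siHHEX by limma (0 higher and 4 lower at an unadjusted p under 0.05, against 12.6% and 13.8% of all genes), *TPM1* was the 1 called between siHHEX and siYAP/TAZ, where it was lower, and siYAP/TAZ lowered *ACTN4* and *TAGLN2*. Under this correction 6.72% of all genes were lower and 2.3% higher in siHHEX against siYAP/TAZ, and 3.37% were lower and 9.18% higher in siYAP/TAZ against siNC. How far base composition made up the siHHEX changes was not tested beyond this correction.

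**Figure D5:**
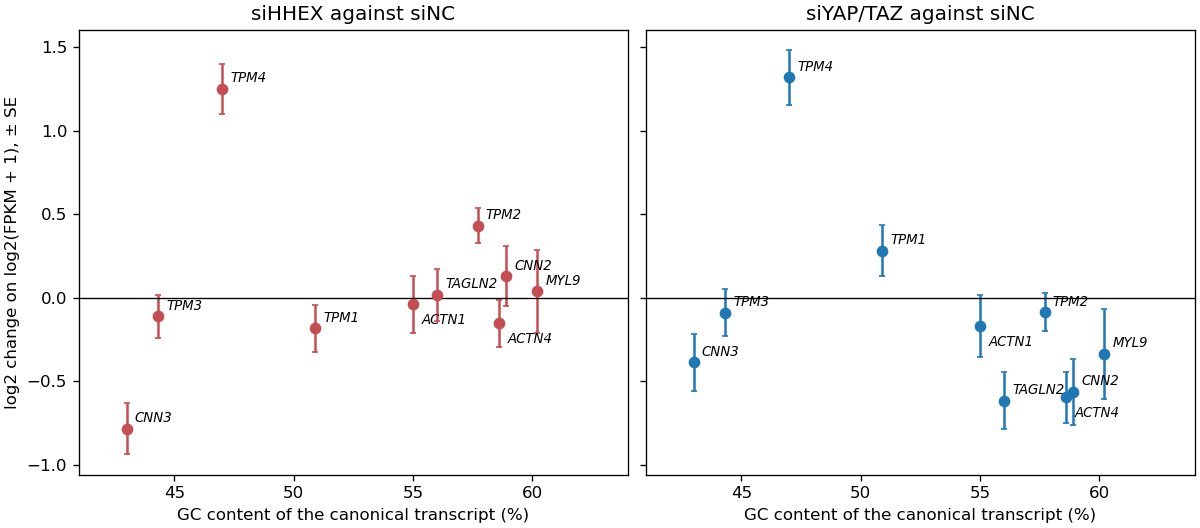
Change against siNC on log2(FPKM + 1) (vertical axis, bars are SE) against GC content of the canonical transcript in percent (horizontal axis) for the 10 genes, in siHHEX (left) and siYAP/TAZ (right). In siHHEX *CNN3* at 43.0% GC is the lowest, and *TPM2* at 57.7% GC the highest of the genes other than *TPM4*; in siYAP/TAZ *TPM4* again stands apart at 1.32.

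RefSeq promoter windows (GRCh38.p14, from 250 bases before to 50 after a transcript start) were given for 9 of the 10 genes, and 4 motifs were searched in them on both strands. These were the CArG box of serum response factor, the TEAD word GGAATG, the AP-1 word TGACTCA and TATAAA. A CArG box was in a window of *TPM4*, *ACTN1* and *CNN2*, against 1.49% of 8517 tested genes with a window. The 9 genes had more windows each than the tested genes (2.22 against 1.44, with 3 for *TPM4*, 4 for *ACTN1* and 1 for *CNN2*), and per window the box was in 3 of 20 against 134 of 12303 (1.09%). The TEAD word was in a window of *ACTN1* and *CNN3* (14.5% of tested genes), the AP-1 word in windows of *TAGLN2* (4.56%) and TATAAA in one of *ACTN1* (7.37%). The stretches around the 3 CArG boxes follow, with the box in capitals, because actin-regulated transcription is known to act through it.
TPM4 promoter (chr19:16067340-16067399, plus strand): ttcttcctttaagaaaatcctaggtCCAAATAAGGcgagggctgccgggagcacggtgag
CNN2 promoter (chr19:1026494-1026553, plus strand): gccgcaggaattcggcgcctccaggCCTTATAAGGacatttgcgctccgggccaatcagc
ACTN1 promoter (chr14:68977703-68977762, minus strand): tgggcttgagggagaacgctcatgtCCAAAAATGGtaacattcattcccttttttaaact

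The box began 173 bases before the start in *TPM4*, 89 in *CNN2* and 171 in *ACTN1*, where the TEAD word lay 154 bases before the same start. A match of letters is not a measured binding site. *SRF* itself was at 16.6 and 18.2 FPKM in siNC, 18.9, 12.9 and 20.2 FPKM in siHHEX, 11.6 and 11.0 FPKM in siYAP/TAZ and 16.1 FPKM in siTEAD1/2/3/4. It was not called against siNC in siHHEX (-0.026, limma adjusted p = 0.915) or siYAP/TAZ (-0.579, limma adjusted p = 0.0938). It was higher in siHHEX than in siYAP/TAZ (0.55, SE 0.178, limma adjusted p = 0.0362), where 13.5% of all tested genes were called higher and 25.9% lower. Its cofactor gene *MKL1* rose in siHHEX from 2.31 and 2.28 FPKM to 3.57, 3.53 and 3.88 FPKM (0.50, SE 0.117, limma adjusted p = 0.0152). The cofactor gene *MKL2* was at 2.22 and 2.49 FPKM in siNC, 1.75, 1.99 and 1.30 FPKM in siHHEX, 3.20 and 3.72 FPKM in siYAP/TAZ and 3.31 FPKM in siTEAD1/2/3/4. It was not called against siNC in siHHEX (-0.332, limma adjusted p = 0.102) or siYAP/TAZ (0.41, limma adjusted p = 0.136). It was lower in siHHEX than in siYAP/TAZ (-0.74, SE 0.146, limma adjusted p = 0.00714).

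Other genes were read from 6 textbook lists. Their counts of called genes stand against 16% higher and 16.9% lower over all genes in siHHEX, and 6.15% higher and 2.13% lower in siYAP/TAZ. Counts at an unadjusted limma p under 0.05 stand against 23% higher and 24.2% lower in siHHEX, and 19.4% higher and 7.85% lower in siYAP/TAZ. Of 3 tested genes for *SRF* and its cofactors, siHHEX raised 1 (*MKL1*) and lowered 0 (limma; 1 and 1 at an unadjusted p under 0.05). In siYAP/TAZ 0 rose and 0 fell (1 and 1 at an unadjusted p under 0.05). Of 3 tested actin genes, siHHEX raised 0 and lowered 0 (limma; 1 and 0 at an unadjusted p under 0.05), and siYAP/TAZ raised 1 (*ACTA2*) and lowered 1 (*ACTG1*). *ACTB* and *ACTG1*, the cytoplasmic actins, had siNC means of 1430.0 and 2790.0 FPKM, and neither was called in siHHEX. *ACTG1* fell by 0.74 in siYAP/TAZ (SE 0.164, limma adjusted p = 0.0305), where the difference for *ACTB* was -0.48 (limma adjusted p = 0.0804) and *ACTA2*, a low gene here, rose by 0.999 (SE 0.205, limma adjusted p = 0.0234). Of the 8 nonmuscle myosin II genes, siHHEX raised 2 and lowered 2 and siYAP/TAZ raised 1 and lowered 2. *MYH14*, a heavy chain, rose from 4.18 and 4.34 FPKM to 7.47 to 8.58 FPKM in siHHEX and to 7.59 and 8.42 FPKM in siYAP/TAZ (0.75, limma adjusted p = 0.00637, and 0.77, limma adjusted p = 0.0155).

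Among 16 tested genes for other crosslinking and bundling proteins, 3 rose and 3 fell in siHHEX (median -0.02), and 0 rose and 1 (*FLNA*) fell in siYAP/TAZ (median 0.17; 3 and 2 at an unadjusted p under 0.05). *LIMA1*, which bundles and stabilises filaments, was at 30.7 and 29.5 FPKM in siNC and at 12.8, 11.0 and 17.4 FPKM in siHHEX (-1.10, SE 0.18, limma adjusted p = 0.00623). *PLS1*, a fimbrin of epithelial brush borders, fell by 0.91 in siHHEX (limma adjusted p = 0.0109), and the bundling gene *ESPN* rose by 0.66 (limma adjusted p = 0.0216).

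The list for filament assembly, capping and severing had 30 tested genes, of which siHHEX raised 2 and lowered 11 (median -0.15) and siYAP/TAZ raised 0 and lowered 0 (limma; 2 and 2 at an unadjusted p under 0.05, median -0.02). *CAPZA2* and *CAPZA1*, which encode the alpha subunits of the barbed-end capping protein, fell by 1.23 and 0.95 in siHHEX (limma adjusted p = 0.00368 and 0.00812). *CAPZA2* was at 45.7 and 42.7 FPKM in siNC, at 20.0, 14.9 and 20.7 FPKM in siHHEX and at 38.9 and 43.1 FPKM in siYAP/TAZ. The siHHEX and siYAP/TAZ libraries did not overlap (-1.12, SE 0.151, limma adjusted p = 0.00407).

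Of 14 genes that link actin to focal adhesions, siHHEX raised 2 and lowered 5 (median -0.25), and siYAP/TAZ raised 0 and lowered 3, *PDLIM1*, *PXN* and *ZYX* (median -0.37; 0 and 4 at an unadjusted p under 0.05). *VCL*, vinculin, was at 32.7 and 31.5 FPKM in siNC and at 10.1, 18.6 and 16.7 FPKM in siHHEX (-1.08, SE 0.23, limma adjusted p = 0.0113). These list counts share the siHHEX libraries whose changes followed GC content, and their part in it was not tested gene by gene.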

How the data were processed

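HCT-116 RNA was extracted with Trizol and sequenced on an Illumina HiSeq instrument. The submitters' processing notes name Trimmomatic 0.36, HISAT2 2.0.5, HTSeq 0.9.1 and Cufflinks 2.2.1, without roles, and the genome build is not given in the sources used here. The authors deposited 1 FPKM value per gene and library, with 20030 rows each, of which 27 are named by a date. Counts were not used here, so depth and its precision are unknown; FPKM summed to 331663 to 383423 per library.

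A gene entered the tests when 2 or more libraries had 1 FPKM or more. Group means of log2(FPKM + 1) were compared by limma (3.58.1, R 4.3.3), all 8 libraries together, with a variance trend and Benjamini-Hochberg adjustment over 10677 genes, and a call needed an adjusted p under 0.05. A fold change on this scale understates low genes. Paralog shares were tested by exact permutation. The fit was tested on simulated data. GC content, lengths and 3′ UTRs came from GENCODE 44 on GRCh38 (10349 genes), promoters from RefSeq. Named genes were the 10 genes, their paralogs, the siRNA targets, the 5 genes most like *TPM4*, and up to 4 called genes per list with the largest siHHEX change; *SRF*, *FLNA* and other genes named beside small counts were chosen with their values in view. The members and lists were chosen with earlier results of these data known, and the siNC and promoter searches were made after the values were seen. Pseudocount, filter, scaling, GC and length, replicate block, call rule and left-out libraries were varied. The result of 1 further gene list is not reported here.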

Additional observations from a re-analysis of the deposited data

Results flagged for a closer look

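In 5 of the 9 genes other than *TPM4*, the effect of siHHEX differed from that of siYAP/TAZ by a direct limma test of siHHEX against siYAP/TAZ, a difference that does not contain siNC, although the siNC libraries enter its spread. The log2 change was higher in siHHEX by 0.443 for *ACTN4*, 0.692 for *CNN2*, 0.633 for *TAGLN2* and 0.519 for *TPM2*, and the difference for *TPM1* was -0.463. Between siHHEX and siYAP/TAZ, 13.5% of all tested genes were called higher and 25.9% lower. With GC content and length corrected, *TPM1* was the 1 gene of these still called, where 2.3% of all genes were higher and 6.72% lower. With the libraries scaled to equal medians, *TPM1* lost its call (-0.287, limma adjusted p = 0.148) and the other 4 kept theirs. In the replicate block siHHEX 3 carries no weight, so the block and leaving out siHHEX 3 are not separate checks. *ACTN4* and *TPM1* also lost their calls with the replicate block, in the fit of only the groups compared, without a filter on low values, and without siNC 1, siNC 2, siHHEX 3 or either siYAP/TAZ library, and *ACTN4* without siHHEX 2. *CNN2* lost its call without a filter and without siYAP/TAZ 2, and *TAGLN2* without siYAP/TAZ 1.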

How the results depend on the processing

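FPKM values carry no depth, so the precision of a single library is unknown, and 2 controls limit every comparison with siNC. Of 420 values of single genes recomputed under another setting, 335 kept their direction and their side of the threshold, 43 lost the threshold, 12 passed it, 28 turned their sign and 2 untested ones moved by more than the standard error of the main change. Of 50 values for siTEAD1/2/3/4, 34 moved by less than the spread between the controls and 16 by more. The cause was not tested for any of these.

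Without a filter on low values, 1907 genes were called in siHHEX in place of 3518 and 320 in siYAP/TAZ in place of 884. The members called, *TPM4* left aside here and below, were then 0 in siYAP/TAZ in place of 1, and 2 in siHHEX against siYAP/TAZ in place of 5, where 3367 genes were called in place of 4200. Fits of only the groups compared called 1759 genes and 3 members in siYAP/TAZ, and 2994 genes and 3 members (*CNN2*, *TAGLN2* and *TPM2*) in siHHEX against siYAP/TAZ. A fold change over 2 with an unadjusted p under 0.05 called 174, 168 and 162 genes in siHHEX, siYAP/TAZ and siHHEX against siYAP/TAZ, and 0 members in each.

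Correction for GC content and length called 652 genes and 0 members in siHHEX, 1299 genes and 2 members in siYAP/TAZ, and 933 genes and 1 member in siHHEX against siYAP/TAZ. It turned the siHHEX changes of *TPM3* to 0.164, *MYL9* to -0.294, *TAGLN2* to -0.344 and *CNN2* to -0.22. For siHHEX minus siYAP/TAZ it turned *TPM3* to 0.292 and *ACTN1* to -0.066.

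Scaling to equal medians moved the differences between siHHEX and siYAP/TAZ upward alike, for example *TPM2* from 0.519 to 0.695. Before scaling their median over all tested genes was -0.129. Of the called genes, 60.5% were then higher in place of 48.7% in siHHEX, 49.1% in place of 74.3% in siYAP/TAZ and 64.4% in place of 34.2% in siHHEX against siYAP/TAZ. It called 678 genes and 2 members in siYAP/TAZ, turned *ACTN1* to 0.029 in siHHEX, and turned *TPM3* to 0.155 and *TPM4* to 0.108 between siHHEX and siYAP/TAZ. Shares of FPKM times transcript length put the rise of the *TPM4* share in siHHEX at 15.54 percentage points in place of 14.5.

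Libraries share replicate numbers, but same-numbered libraries did not deviate together (r = -0.0434 to -0.0251), so the numbers do not pair them. With the replicate block, 2062 genes and 1 member (*CNN3*) were called in siHHEX, where *TPM2* lost its call (0.397, limma adjusted p = 0.0507), 1031 genes and 2 members in siYAP/TAZ, and 2937 genes and the same 3 members in siHHEX against siYAP/TAZ, and the siHHEX changes of *MYL9*, *TAGLN2* and *CNN2* were -0.155, -0.106 and -0.046. The block together with the correction for GC content and length called 146 genes and 0 members in siHHEX, 1124 genes and 2 members in siYAP/TAZ, and 249 genes and 1 member in siHHEX against siYAP/TAZ. It put the siHHEX changes of *TPM3* at 0.123, *MYL9* at -0.435, *TAGLN2* at -0.417 and *CNN2* at -0.343, and for siHHEX minus siYAP/TAZ *TPM3* at 0.251, *ACTN1* at -0.133 and *MYL9* at -0.107.

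Leaving out each library in turn gave 19 to 4839 genes and 0 to 3 members in siHHEX, 15 to 1317 genes and 0 to 3 members in siYAP/TAZ, and 1026 to 5161 genes and 2 to 6 members in siHHEX against siYAP/TAZ. Without siNC 1 or siNC 2, when the lone control is assumed to vary like the other groups, 19 and 27 genes were called in siHHEX and 22 and 15 in siYAP/TAZ. Without siYAP/TAZ 2 the counts were 92 in siYAP/TAZ and 1026 in siHHEX against siYAP/TAZ, and without siHHEX 1 there were 2109 in siHHEX. Over these fits the siHHEX changes ran from -0.137 to 0.133 for *ACTN1*, -0.155 to 0.339 for *MYL9*, -0.106 to 0.087 for *TAGLN2* and -0.046 to 0.287 for *CNN2*, and siHHEX minus siYAP/TAZ from -0.108 to 0.066 for *TPM3* and -0.308 to 0.173 for *TPM4*.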
